A study of Mus musculus with 11 samples.

Results

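The NF-kB subunits and IkB proteins are 10 genes of the 36529 listed in the count files, chosen by their gene symbols. They are the 5 subunits Nfkb1, Nfkb2, Rel, Rela and Relb, the 3 classical IkB proteins Nfkbia, Nfkbib and Nfkbie, and the 2 nuclear IkB proteins Nfkbiz and Bcl3. RNA was sequenced from BV2 cells, a transformed microglial line of C57BL/6 mouse origin, after 5 h with an amino-terminal fragment of human apolipoprotein E at 25 μg/ml. In one experiment 3 samples received nApoE4, which holds residues 1 to 151 of ApoE4, and 3 samples were its untreated controls. In the other, 2 samples received nApoE3, the same stretch of ApoE3 with a cysteine where ApoE4 has an arginine, and 3 samples were its own untreated controls. Both fragments were purified through a His tag, and no sample with an inactive tagged protein was analysed here. The vehicle is PBS in the labels and conditioned medium in the methods. The paper speaks of 3 independent measurements, though nApoE3 has 2 samples here, and does not say whether they came from separate cultures. The p-values thus measure the spread between these samples.

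NF-kB is a family of transcription factors that work as pairs of subunits. In resting cells the classical IkB proteins hold the pairs in the cytoplasm. Signals from Toll-like or TNF receptors activate the IKK kinases, which mark IkB for destruction and free the pairs to enter the nucleus and bind kB sites in DNA. Nfkb1 and Nfkb2 encode precursors that are processed to p50 and p52, which lack a domain that activates transcription, while Rela, Rel and Relb encode subunits that carry one. Several subunit and IkB genes are themselves targets of NF-kB, and Nfkbia is the textbook case of a feedback inhibitor. Nfkbiz and Bcl3 encode IkB-like proteins that act in the nucleus together with p50 or p52. In microglia and macrophages this pathway is best known for driving inflammatory genes.

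All 10 members were higher with either fragment than in the controls of the same experiment. The 2 largest changes with nApoE4 were those of Nfkbiz at 16.2-fold and Nfkbie at 14.7-fold, and with nApoE3 those of the same 2 genes at 13.5-fold and 8.76-fold. Rela, which encodes p65, rose least with nApoE4, by 1.87-fold. The response of Relb differed most between the fragments, at 9.87-fold with nApoE4 and 3.79-fold with nApoE3.

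Depth on genes ran from 39732710 to 69768666 counts per sample, and levels below are in counts per 1000000 counts on genes (CPM) on TMM-scaled library sizes. In the controls of nApoE4, replicate 2 stood apart, with a chi-square per degree of freedom of 25.8 and 47.9 against the other 2 controls, which gave 7.85 against each other. In that library Rel had 738 counts, against 1015 and 1199 in the others. Of 13 microglia and macrophage markers, 9 or 10 were above 1 CPM in every sample of a group, with sums of 2680 to 3894 CPM, but P2ry12, a marker of resting microglia in tissue, had no count in any sample. Aif1 and Cx3cr1 were below 1 CPM in every sample, and Trem2 ran from 1.33 to 60.5 CPM within the nApoE4 controls. Sums over the marker lists of astrocytes, neurons, oligodendrocytes, T cells and endothelium were at most 25.5 CPM. The astrocyte sum was 1.36 to 1.99 CPM in the controls and 5.88 to 7.89 CPM in the treated samples, with Aqp4 and Gja1 at 0 in the nApoE4 experiment. Most of it was 1 gene, Slc1a2, at means of 1.00 and 6.43 CPM in the nApoE4 experiment and 1.06 and 4.37 CPM in the other. The neuron sum was 1.93 to 2.49 CPM in the nApoE4 controls and 5.27 to 6.27 CPM with nApoE4, with Stmn2 at 0, and 1.10 to 1.42 and 1.46 to 1.49 CPM in the nApoE3 experiment. The microglia and macrophage sum was 2680 to 2794 CPM in the nApoE3 controls and 3271 to 3288 CPM with nApoE3, and overlapped in the nApoE4 experiment. The endothelium sum was 0.907 to 1.35 CPM in the nApoE3 controls and 1.43 to 1.86 CPM with nApoE3. The part of these lists in the results was not tested.

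The sequences before the gene starts are shown because the members moved together and the NF-kB family binds a known 10-base consensus. RefSeq promoter windows on GRCm38.p6, with 250 bases before and 50 after a start, were at hand for 7 members, and 5 of these held the kB consensus on either strand in a window. Among all 27025 genes with such windows, 9.55% held it. The members with a match were Nfkb2, Rel, Nfkbia, Nfkbie and Bcl3, and those without were Rela and Nfkbib. Windows of Nfkb1, Relb and Nfkbiz were not used here.

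In the following stretches, written 5′ to 3′ on the strand of the gene, capitals mark the match or 2 overlapping matches to the kB consensus. The Nfkbia stretch is chr12:55492648-55492897 on the minus strand, with the match beginning 29 bases before the start. The Nfkbie stretch is chr17:45555450-45555699 on the plus strand, with the match at 106 bases before the start. The Rel stretch is chr11:23770971-23771219 on the minus strand, with matches at 92 and 91 bases before the start. The 2 Nfkb2 stretches of 30 bases, chr19:46304688-46304717 and chr19:46305695-46305724 on the plus strand, come from windows of 2 annotated starts. Annotated Nfkb2 exons cover 250 and 234 of the 250 bases before these starts, so only the bases around the first match are shown. Another Nfkb2 window, between these, is not printed. Its start lies just before the downstream stretch, whose match begins 11 bases after that start. The Rela stretch, chr19:5637291-5637482 on the plus strand, holds no match, and that of Nfkbib, also without a match, is not printed.
Nfkbia: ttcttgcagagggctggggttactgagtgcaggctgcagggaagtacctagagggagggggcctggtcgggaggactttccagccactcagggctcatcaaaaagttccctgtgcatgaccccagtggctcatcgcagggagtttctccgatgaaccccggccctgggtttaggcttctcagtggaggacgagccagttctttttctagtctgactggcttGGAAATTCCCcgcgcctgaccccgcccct
Nfkbie: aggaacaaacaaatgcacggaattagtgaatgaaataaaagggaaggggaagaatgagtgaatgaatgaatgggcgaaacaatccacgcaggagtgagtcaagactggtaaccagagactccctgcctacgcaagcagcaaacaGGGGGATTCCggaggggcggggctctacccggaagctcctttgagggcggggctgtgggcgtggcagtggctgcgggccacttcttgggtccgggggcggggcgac
Rel: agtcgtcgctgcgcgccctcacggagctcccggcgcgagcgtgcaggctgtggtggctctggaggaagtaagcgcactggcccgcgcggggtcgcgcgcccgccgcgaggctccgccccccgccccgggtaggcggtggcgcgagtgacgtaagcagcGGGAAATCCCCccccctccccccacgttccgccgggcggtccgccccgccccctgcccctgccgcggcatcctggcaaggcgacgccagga
Nfkb2, upstream start: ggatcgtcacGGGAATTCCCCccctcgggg
Nfkb2, downstream start: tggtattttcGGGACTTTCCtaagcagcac
Rela: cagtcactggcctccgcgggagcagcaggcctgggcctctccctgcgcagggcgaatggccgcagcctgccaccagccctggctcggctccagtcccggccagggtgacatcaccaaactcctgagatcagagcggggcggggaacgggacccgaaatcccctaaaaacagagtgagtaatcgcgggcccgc

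A match is a description of letters, and no binding was measured. Without a match, Rela and Nfkbib rose 1.87-fold and 3.99-fold with nApoE4 and 2.06-fold and 3.00-fold with nApoE3. The members with a match rose 3.39-fold (Bcl3) to 14.7-fold (Nfkbie) with nApoE4 and 2.01-fold (Rel) to 8.76-fold (Nfkbie) with nApoE3. Whether a match goes with the size of the change was not tested. The window of Bcl3 held its match 3 bases after the start.

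On GRCm38 with GENCODE vM21, the subunit genes lie at chr3:135584655-135691547 (Nfkb1), chr19:46304320-46312385 (Nfkb2), chr11:23736847-23770970 (Rel), chr19:5637483-5648130 (Rela) and chr7:19606217-19629438 (Relb). The IkB genes lie at chr12:55489410-55492647 (Nfkbia), chr7:28758251-28767512 (Nfkbib), chr17:45555703-45563169 (Nfkbie), chr16:55811375-55838899 (Nfkbiz) and chr7:19808462-19822770 (Bcl3). Relb and Bcl3 are 179023 bases apart. Exons of genes on the opposite strand cover 830 exonic bases of Nfkb2, 356 of Nfkbib and 161 of Bcl3, and since the strand setting of the counting is not given in the sources used here, reads from these stretches cannot be told apart or may have been left out as ambiguous.

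**Figure D1:**
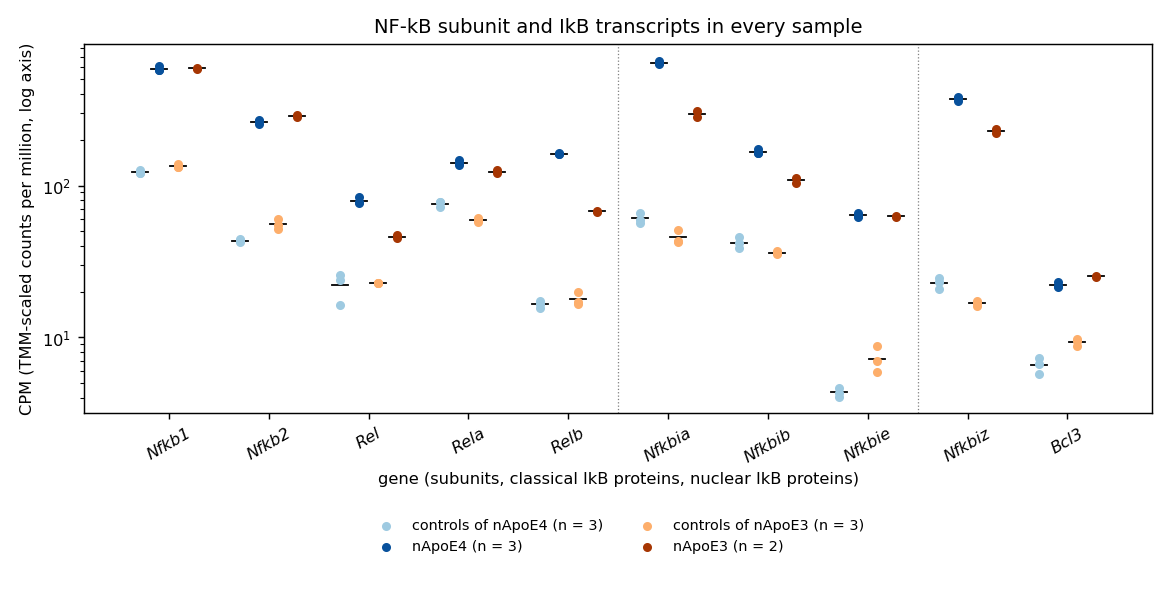
Level of each member in every sample, as TMM-scaled CPM on a log axis. Points are samples, black bars are group means, and dotted lines part the subunits, the classical IkB proteins and the nuclear IkB proteins. Every treated point of every gene lies above all controls of its experiment.

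Among the subunits that lack an activation domain, Nfkb1 was at 121, 121 and 127 CPM in the 3 controls of nApoE4 and at 577, 614 and 572 CPM with nApoE4. In the nApoE3 experiment it was at 132, 133 and 138 CPM in the controls and at 590 and 589 CPM with the fragment. The ranges do not meet, and the treated samples of both experiments overlapped. The fold change was 4.80 with nApoE4 (log2 2.26 ± 0.064 SE, adjusted p = 3.57e-09) and 4.38 with nApoE3 (log2 2.13 ± 0.024 SE, adjusted p = 4.69e-15), by the quasi-likelihood F test of edgeR, with p adjusted after Benjamini-Hochberg across all genes tested, as for every adjusted p below.

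Nfkb2, the precursor of p52 in the pathway's non-canonical arm, was at 42.7, 44.2 and 43.4 CPM in the controls of nApoE4 and at 265, 270 and 254 CPM with nApoE4. With nApoE3 it went from 51.5, 54.8 and 60.5 CPM in the controls to 289 and 282 CPM. Both experiments show a clear gap between controls and treated samples. The folds were 6.08 (log2 2.60 ± 0.059 SE, adjusted p = 1.15e-09) and 5.13 (log2 2.36 ± 0.047 SE, adjusted p = 5.38e-13).

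Of the subunits with an activation domain, Rela was the most abundant per length in the controls. It changed least of all members with nApoE4, while with nApoE3 Rel changed slightly less, by 2.01-fold. Rela was at 72.6, 77.6 and 77.3 CPM in the controls of nApoE4 and at 141, 148 and 136 CPM with nApoE4. With nApoE3 it was at 58.0, 61.2 and 59.3 CPM in the controls and at 126 and 120 CPM treated. Both changes passed the test, with folds of 1.87 (log2 0.91 ± 0.060 SE, adjusted p = 1.12e-06) and 2.06 (log2 1.04 ± 0.032 SE, adjusted p = 3.18e-11).

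Rel, which encodes c-Rel and is known for its part in lymphocyte and myeloid cytokine genes, was at 23.8, 16.5 and 25.7 CPM in the controls of nApoE4 and at 76.8, 84.1 and 78.0 CPM with nApoE4. The low control value is that of replicate 2, the library that stood apart. With nApoE3 it went from 22.7, 23.0 and 22.9 CPM to 46.9 and 45.4 CPM. The treated samples of the nApoE4 experiment were all above those of the nApoE3 experiment, while the controls overlapped. The folds were 3.63 (log2 1.86 ± 0.14 SE, adjusted p = 2.69e-06) and 2.01 (log2 1.01 ± 0.035 SE, adjusted p = 9.66e-11).

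Relb, the partner of p52 in the non-canonical arm, was at 16.6, 17.3 and 15.5 CPM in the controls of nApoE4 and at 162, 165 and 160 CPM with nApoE4. In the nApoE3 experiment the controls were at 17.0, 16.5 and 19.9 CPM and the treated samples at 67.4 and 67.8 CPM. The controls of the 2 experiments overlapped, and the treated samples were far apart. The folds were 9.87 (log2 3.30 ± 0.064 SE, adjusted p = 4.57e-10) and 3.79 (log2 1.92 ± 0.057 SE, adjusted p = 2.10e-11).

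Among the classical IkB proteins, Nfkbia, which encodes IkBα, the fast feedback inhibitor, reached the highest level per length of all members in the samples with either fragment. It was at 59.2, 65.9 and 56.9 CPM in the controls and at 643, 628 and 662 CPM with nApoE4. In the nApoE3 experiment the controls were at 42.5, 43.1 and 51.2 CPM and the treated samples at 309 and 285 CPM. No control came near a treated sample in either experiment. The folds were 10.7 (log2 3.41 ± 0.077 SE, adjusted p = 1.14e-09) and 6.50 (log2 2.70 ± 0.061 SE, adjusted p = 1.57e-12).

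Nfkbib, which encodes IkBβ, known for slower and more lasting control of NF-kB than IkBα, changed least of the 3. It was at 42.0, 45.5 and 38.7 CPM in the controls of nApoE4 and at 164, 164 and 174 CPM with nApoE4. With nApoE3 it rose from 35.7, 35.4 and 37.0 CPM to 113 and 104 CPM. The folds were 3.99 (log2 2.00 ± 0.072 SE, adjusted p = 1.60e-08) and 3.00 (log2 1.58 ± 0.038 SE, adjusted p = 2.80e-12), and the groups did not overlap in either experiment.

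Nfkbie, which encodes IkBε, had the lowest level per length of all members in both groups of controls. It was at 4.09, 4.64 and 4.33 CPM in those of nApoE4 and at 63.4, 65.7 and 62.0 CPM with nApoE4. In the nApoE3 experiment the controls were higher, at 5.91, 6.96 and 8.73 CPM, and the treated samples were at 63.3 and 62.2 CPM. The treated samples of the 2 experiments overlapped, and the controls did not. The folds were 14.7 (log2 3.88 ± 0.072 SE, adjusted p = 4.08e-10) and 8.76 (log2 3.13 ± 0.089 SE, adjusted p = 1.33e-11).

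Of the nuclear IkB proteins, Nfkbiz, which encodes IkBζ, a cofactor of p50 at secondary response genes such as cytokines, had the largest fold with both fragments. It went from 23.3, 20.9 and 24.7 CPM to 358, 381 and 375 CPM with nApoE4. With nApoE3 it went from 16.2, 16.8 and 17.5 CPM to 234 and 220 CPM. Treated and control samples were apart in both experiments, with folds of 16.2 (log2 4.02 ± 0.081 SE, adjusted p = 5.90e-10) and 13.5 (log2 3.75 ± 0.038 SE, adjusted p = 2.47e-15).

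Bcl3, a nuclear partner of p50 and p52, changed less than Nfkbiz with either fragment. Its nApoE4 controls were at 5.78, 7.32 and 6.66 CPM and the nApoE4 samples at 21.9, 23.3 and 21.5 CPM. The controls of nApoE3 were at 8.84, 9.45 and 9.78 CPM and its treated samples at 25.6 and 24.9 CPM. The gap between groups was clear in both, with folds of 3.39 (log2 1.76 ± 0.095 SE, adjusted p = 2.51e-07) and 2.69 (log2 1.43 ± 0.051 SE, adjusted p = 1.08e-10).

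With nApoE4, 10 of 10 members were past an adjusted p of 0.05 and higher, where 28.6% of the 14240 genes tested were higher and 28.6% lower. A fold above 2 as well was met by 9 of 10, all except Rela, against 10.2% of genes. For 10 of 10 every treated sample lay above every control, against 31.5% of genes. The median log2 fold change of the members was 2.43, with a range of 0.91 to 4.02, and that of all genes tested was 0.0013. Ranked from the highest log2 fold change, Nfkbiz stood at 161 and Rela, the lowest member, at 1644.

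With nApoE3, 10 of 10 members were higher, where 33.1% of the 14817 genes tested were higher and 34.6% lower. A fold above 2 was met by 10 of 10 against 9.6% of genes, and for 10 of 10 both treated samples lay above all controls, against 38.6%. The median log2 fold change of the members was 2.03, from 1.01 to 3.75, beside -0.0026 for all genes. Rel, the lowest member, stood at rank 1441 and Nfkbiz at 195. These are bulk samples, so more RNA per cell and more cells carrying it cannot be told apart.

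**Figure D2:**
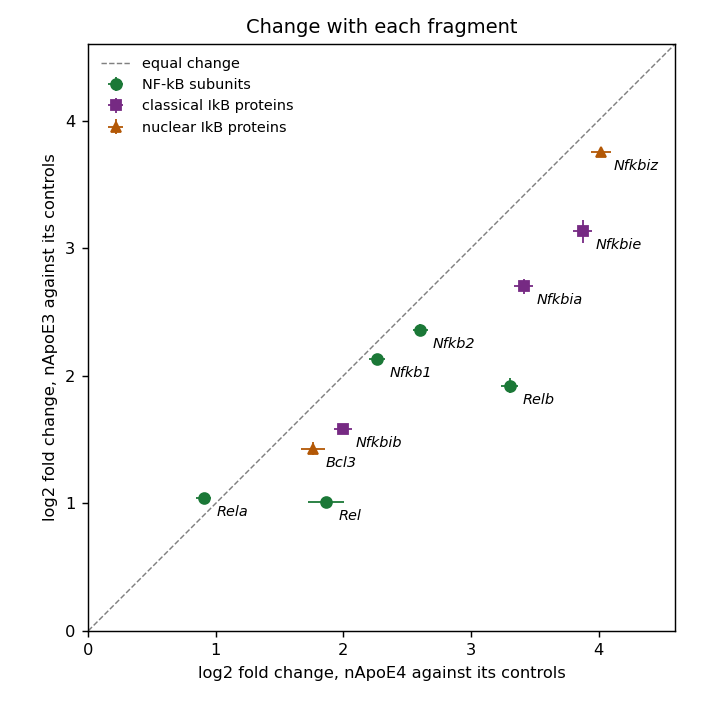
Log2 fold change of each member with nApoE3 against that with nApoE4, each relative to the controls of its own experiment. Bars are standard errors, symbols mark the 3 kinds of protein, and the dashed line marks equal change. Relb lies farthest below the line, at 3.30 and 1.92, and Rela lies just above it.

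Whether the 2 fragments, which differ by a cysteine and an arginine, changed the members unequally was asked with the difference of the 2 log2 fold changes over all 11 samples. Each fragment was tested in an experiment of its own, so fragment and experiment cannot be told apart. The response to nApoE4 was larger for 8 of 10 members, where 14.4% of the 15287 genes tested were called larger with nApoE4. The median difference of the members was 0.36, beside 0.0025 for all genes.

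Relb differed most, by 1.37 on the log2 scale (95% interval 1.16 to 1.58, adjusted p = 5.22e-07), which makes its fold with nApoE4 2.59 times that with nApoE3. Rel differed by 0.84 (0.47 to 1.21, adjusted p = 0.0024), Nfkbie by 0.74 (0.40 to 1.07, adjusted p = 0.00309) and Nfkbia by 0.71 (0.46 to 0.95, adjusted p = 0.000413). These 4 kept their call under all 16 alternatives, including the one without the control library that stood apart. The 3 classical IkB genes were all called, as Nfkbib differed by 0.40 (0.21 to 0.59, adjusted p = 0.00414), though its adjusted p was 0.0604 with the replicate number as a block.

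The other called differences were small and close to the threshold. Bcl3 differed by 0.32 (adjusted p = 0.0484), Nfkbiz by 0.26 (adjusted p = 0.047) and Nfkb2 by 0.24 (adjusted p = 0.0497). They lost the call in 12, 9 and 10 of the 16 alternatives. With the replicate block 4 members were called. Without nApoE4 control 1, nApoE4 replicate 2, nApoE3 control 2 or 3, or either nApoE3 sample, 5 were called. Nfkb1 and Rela were not called, with differences of 0.12 (95% interval -0.021 to 0.26) and -0.15 (-0.30 to 0.0092).

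**Figure D3:**
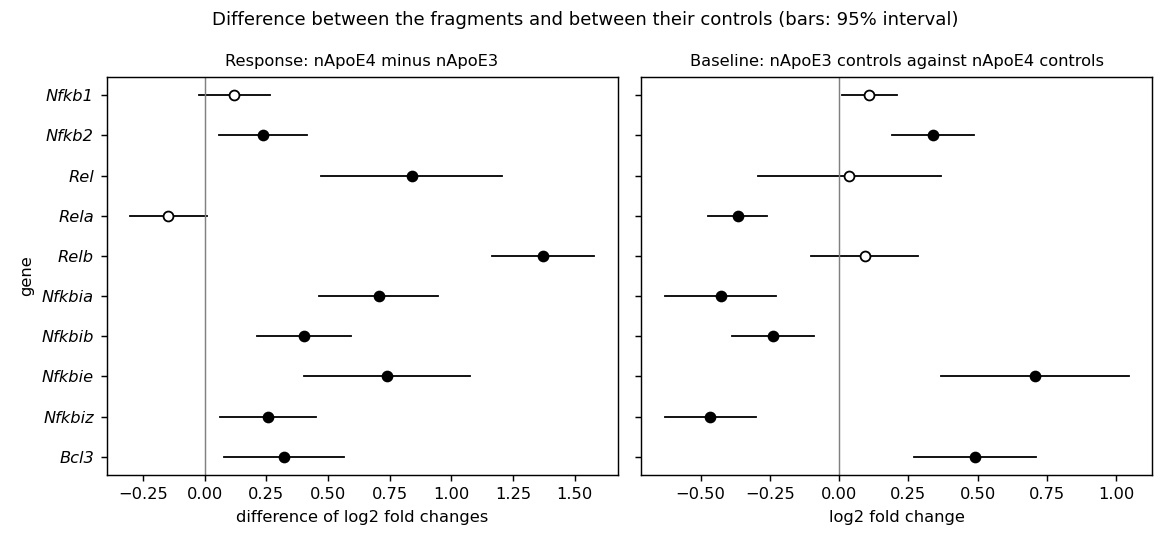
Left, difference of the log2 fold changes, nApoE4 minus nApoE3, over 11 samples. Right, log2 fold change of the nApoE3 controls against the nApoE4 controls. Bars are 95% intervals, filled points have an adjusted p under 0.05 and open points do not. The Relb response differs by 1.37 while its controls differ by 0.093.

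The untreated cells of the 2 experiments were not alike. In the nApoE3 controls 3 members were higher and 4 lower than in the nApoE4 controls, where 34.4% and 34.9% of the 14249 genes tested were higher and lower, so the members' shares were near those of all genes. Nfkbie was higher by 0.71 on the log2 scale (adjusted p = 0.00288), Bcl3 by 0.49 (adjusted p = 0.00206) and Nfkb2 by 0.34 (adjusted p = 0.00168). 

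Nfkbiz was lower in the nApoE3 controls by 0.47 (log2 fold change -0.47, adjusted p = 0.000535), Nfkbia at -0.43 (adjusted p = 0.00245), Rela at -0.37 (adjusted p = 0.000169) and Nfkbib at -0.24 (adjusted p = 0.0102). For Nfkb1 the value was 0.11 (adjusted p = 0.0505), for Relb 0.093 (95% interval -0.10 to 0.29) and for Rel 0.037 (-0.29 to 0.37). Without replicate 2 of the nApoE4 controls, Rel was instead lower in the nApoE3 controls, at -0.13 (adjusted p = 0.0219). Over all samples the controls of Relb and Rel, the 2 members with the largest difference in response, were not called different. A missing call does not show equal controls, and a link between controls and response was not tested. The differences of Nfkbie, Bcl3 and Nfkb2 came with higher nApoE3 controls, and those of Nfkbia, Nfkbiz and Nfkbib with lower ones. The treated samples of Bcl3 were at 21.5 to 23.3 CPM with nApoE4 and 24.9 to 25.6 with nApoE3. Those of Nfkb2 were at 254 to 270 and 282 to 289 CPM, so both were higher with nApoE3.

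Levels were compared between genes as CPM per kb of the longest annotated transcript, and the place of Nfkb1 in the order depends on that length. In the nApoE4 controls the order ran from Nfkbia at 38.5 ± 2.9 (SD, n = 3) through Nfkb1 at 29.6 ± 0.79, Rela at 27.9 ± 1.0, Nfkbib at 20.4 ± 1.7 and Nfkb2 at 11.3 ± 0.19 CPM per kb. Nfkbiz at 5.58 ± 0.46 and Relb at 5.04 ± 0.27 overlapped, as did Bcl3 at 3.56 ± 0.42 and Rel at 2.95 ± 0.65, and Nfkbie was last at 1.45 ± 0.092 CPM per kb. The remaining neighbours in that order did not overlap. In the nApoE3 controls Nfkb1 at 32.3 ± 0.74 and Nfkbia at 28.9 ± 3.1 CPM per kb overlapped at the top, and Nfkbie at 2.40 ± 0.47 was again last. With all annotated exon bases as the length, Nfkb1 was at 10.2 CPM per kb in the nApoE4 controls and 11.1 in the nApoE3 controls. These levels were below Nfkbia at 37.7 and 28.3, Rela at 24.7 and 19.4, and Nfkbib at 19.4 and 16.6 CPM per kb. In the nApoE3 controls Nfkb1 overlapped Nfkb2, which had a mean of 12.1 CPM per kb on that length.

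With nApoE4 the order changed. Nfkbia led at 408 ± 11 CPM per kb, ahead of Nfkb1 at 142 ± 5.5, Nfkbiz at 90.3 ± 2.9, Nfkbib at 81.2 ± 2.9 and Nfkb2 at 68.4 ± 2.1. Rela at 52.1 ± 2.4 and Relb at 49.6 ± 0.71 overlapped, and Nfkbie at 21.2 ± 0.62, Bcl3 at 12.02 ± 0.52 and Rel at 10.7 ± 0.52 CPM per kb followed. With nApoE3 (n = 2) Nfkbia led at 188 ± 11 and Nfkb1 followed at 142 ± 0.21 CPM per kb. Nfkbiz and Nfkbib overlapped there, as did Nfkbie at 20.9 ± 0.26 and Relb at 20.6 ± 0.085, and Rel was last at 6.18 ± 0.14 CPM per kb. With exon bases Nfkb1 was at 48.7 CPM per kb with nApoE4, below Nfkbib at 77.2, Nfkbiz at 74.0 and Nfkb2 at 57.4. With nApoE3 it was at 48.9, below Nfkb2 at 62.3, and overlapped Nfkbib at 50.0 CPM per kb. Nfkbia stayed first on that length, at 400.1 and 184 CPM per kb.

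Within the summed level of the 5 subunits per kb, Rela made up 36.3% ± 0.87 (SD, n = 3) in the nApoE4 controls and 16.2% ± 0.20 with nApoE4. In the nApoE3 experiment its share was 28.4% ± 0.96 in the controls and 15.7% ± 0.34 (n = 2) treated. Relb went from 6.56% ± 0.45 to 15.4% ± 0.29 with nApoE4, and from 7.04% ± 0.53 to 7.16% ± 0.10 with nApoE3. With the longest transcript as length, the Relb share with nApoE4 lay far above its controls. With nApoE3 it differed from them by less than their SD. With all annotated exon bases as the length, the Relb share was 8.24% in the controls and 20.4% with nApoE4. On that length it was 9.11% in the controls of nApoE3 and 9.95% with nApoE3. Nfkb1 and Nfkb2 together held most of the summed level in the treated samples, at 43.9% and 21.2% with nApoE4 and 49.3% and 25.7% with nApoE3.

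Within the 5 IkB transcripts, the Nfkbia share was 55.3% ± 0.70 in the controls and 66.6% ± 0.68 with nApoE4, and 49.8% ± 1.6 and 56.9% ± 0.42 with nApoE3. Nfkbib, at 29.4% ± 0.78 and 30.2% ± 1.5 in the 2 groups of controls, held 13.3% ± 0.20 with nApoE4 and 15.9% ± 0.079 with nApoE3. The Nfkbiz share was 8.08% ± 1.2 and 7.07% ± 0.28 in the controls and 14.7% ± 0.53 and 16.7% ± 0.12 treated. These shares are descriptions and were not tested.

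**Figure D4:**
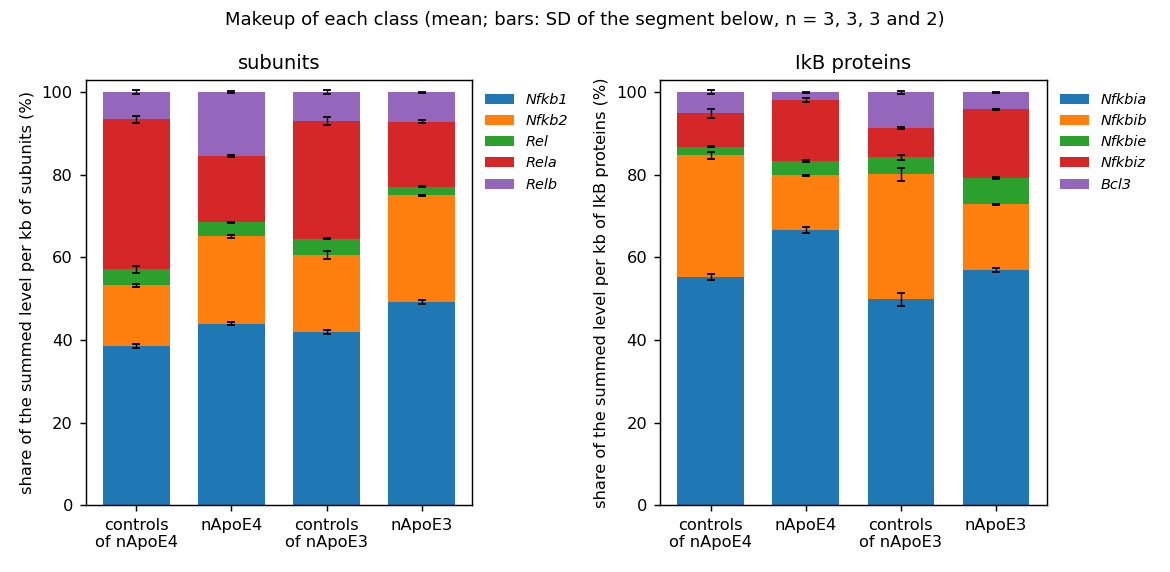
Share of each gene in the summed level per kb of the 5 subunits (left) and the 5 IkB proteins (right), as means per group. Error bars at the top of a segment are the SD of that segment's share. The Rela segment is smaller with both fragments, and the Relb segment is larger with nApoE4, at 15.4% against 6.56%.

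Summed over genes, the IkB transcripts differed more between treated and control samples than the subunit transcripts did, a difference that was not tested. The subunits summed to 76.8 ± 1.6 CPM per kb in the controls of nApoE4 and 322 ± 11 with nApoE4, and the IkB proteins to 69.5 ± 4.4 and 613 ± 13 CPM per kb. The ratio of the 2 sums was 0.905 ± 0.065 in the controls and 1.90 ± 0.098 with nApoE4. With nApoE3 it was 0.750 ± 0.032 in the controls and 1.15 ± 0.047 (n = 2) treated. The ranges of treated and control samples did not overlap in either experiment. The ratio depends on the length used, and with all annotated exon bases of each gene it was 1.28 and 2.84 for nApoE4 and 1.08 and 1.78 for nApoE3. The largest shift is that of Nfkb1, with 12061 exonic bases and a longest transcript of 4149 bases. With exon bases its share of the subunits in the nApoE4 controls was 19.8% and not 38.6%, and that of Rela 47.9%.

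The other genes of the pathway were described from fixed lists, and their counts stand beside all genes tested, of which 28.6% were higher and 28.6% lower with nApoE4 and 33.1% and 34.6% with nApoE3. Of 2 further IkB-related genes, Nfkbil1 had 1 to 19 counts per sample and was not tested. Nfkbid, which encodes another nuclear IkB protein, was at 46.4 ± 0.59 CPM in the nApoE4 controls and 40.7 ± 1.7 with nApoE4, and at 27.1 ± 0.74 and 40.9 ± 0.019 CPM in the nApoE3 experiment. It fell slightly with nApoE4 (log2 fold change -0.18 ± 0.056 SE, adjusted p = 0.0193) and rose with nApoE3 (0.59 ± 0.037 SE, adjusted p = 2.34e-08), a difference of -0.78 (adjusted p = 2.62e-06), whereas the 10 members rose with both. As with Nfkbie, the treated levels were close and the controls apart.

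Of the 11 IKK kinases and their activators, 8 were higher, 1 lower and 2 not called with nApoE4, and 9, 1 and 1 with nApoE3. The shares higher were above those of all genes, and the median log2 fold changes were 0.59 and 0.32. Ikbke, which encodes the IKK-related kinase IKKε, rose from 11.95 ± 1.7 to 257 ± 13 CPM with nApoE4 (21.5-fold, adjusted p = 1.46e-09) and from 16.7 ± 1.1 to 135 ± 1.2 CPM with nApoE3 (8.05-fold, adjusted p = 2.45e-14). Its difference between the fragments, 1.41 on the log2 scale (adjusted p = 2.59e-06), was about that of Relb.

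Map3k8, which encodes the kinase Tpl2 that p105 holds inactive, rose 2.23-fold with nApoE4 (adjusted p = 6.23e-07) and 2.85-fold with nApoE3 (adjusted p = 9.05e-10). Tab1, an adaptor of the kinase TAK1, fell by 0.36 and 0.26 on the log2 scale (adjusted p = 0.000345 and 0.000285). Map3k14, which encodes NIK, the kinase of the non-canonical arm, was at 2.48 to 4.02 CPM in all samples and was not called with either fragment (log2 fold changes 0.078 and -0.19, adjusted p = 0.742 and 0.187). A change in its transcript was thus not detected, at 111 to 234 counts per sample.

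Of the 18 ubiquitin and adaptor proteins, 11 were higher, 2 lower and 5 not called with nApoE4, and 12, 2 and 4 with nApoE3, with medians of 0.43 and 0.27 and shares higher above those of all genes. Traf1, an adaptor of TNF receptors, rose from 1.08 ± 0.11 to 203 ± 2.1 CPM with nApoE4 and from 1.16 ± 0.11 to 124 ± 1.2 CPM with nApoE3 (log2 7.55 and 6.74, adjusted p = 4.96e-11 and 3.75e-16). Tnfaip3, which encodes A20, a feedback inhibitor that edits ubiquitin chains, rose 13.1-fold and 16.8-fold (adjusted p = 4.23e-10 and 2.23e-13). Ripk1, a kinase and scaffold at the TNF receptor, fell by 0.41 and 0.43 (adjusted p = 0.000169 and 3.09e-08). Ube2v1, part of the enzyme that builds K63-linked chains, fell by 0.16 with nApoE4 (adjusted p = 0.0398) and was not called with nApoE3 (-0.023, adjusted p = 0.536).

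The 13 genes of the IkB ubiquitin ligase and of nuclear regulators had the smallest median changes of the lists, at -0.057 with nApoE4 and 0.086 with nApoE3. With nApoE4 3 were higher, 1 lower and 9 not called, and with nApoE3 7, 3 and 3. The share higher was below that of all genes with nApoE4 but above their 33.1% with nApoE3. The share lower was below that of all genes with either fragment. Cul1, the scaffold of the ligase that marks IkB, rose 2.56-fold and 2.22-fold (adjusted p = 5.48e-08 and 2.92e-13), and Fbxw11, a substrate receptor of that ligase, 1.72-fold and 1.45-fold (adjusted p = 4.24e-06 and 1.16e-08). Hdac3, a deacetylase, fell by 0.25 and 0.11 (adjusted p = 0.00413 and 0.00816). Pdlim2, which encodes a nuclear ligase for p65, was at -0.17 with nApoE4 (adjusted p = 0.135) and fell by 0.43 with nApoE3 (adjusted p = 0.000127).

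Of 30 textbook NF-kB target genes, 26 were tested with nApoE4, with 24 higher and 2 lower, and 25 with nApoE3, with 24 higher and 1 lower. Il6, Ccl5, Cxcl10 and Csf2 were listed at 0 in all 11 samples and have no test. Absent RNA and reads left out in the counting, whose overlap mode is not given, cannot be told apart for these genes. Genes with 3 counts or fewer in every control have only a lower bound, taken against 3 counts per library. So Cxcl1, a chemokine for neutrophils, was at least 10.8-fold higher with nApoE4, at 28 to 33 counts, and had 7 counts in each nApoE3 sample, and Tnf was at least 20.3-fold and 40.3-fold higher. With such genes at their bounds the list's median was 3.67 with nApoE4 and 3.995 with nApoE3, above the 2.43 and 2.03 of the members.

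Cxcl2, another neutrophil chemokine, rose from 17 to 32 counts in the nApoE4 controls to 10870 to 11383 counts, a log2 fold change of 8.98 (adjusted p = 1.97e-10), and by 8.20 with nApoE3 (adjusted p = 1.03e-16). Il12b, a subunit of interleukin 12 and 23, had 3 to 5 counts in the controls and 2035 to 2305 counts with nApoE4 and 887 to 1150 with nApoE3. Il1b rose from 1.03 ± 0.070 to 223 ± 17 CPM and from 1.99 ± 0.54 to 360 ± 22 CPM (log2 7.76 and 7.503, adjusted p = 9.53e-11 and 3.14e-15). Bcl2l1, which encodes a survival protein, rose 1.79-fold and 1.64-fold (adjusted p = 7.71e-06 and 1.64e-09).

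Not every textbook target rose. Ccnd1, which encodes cyclin D1, fell by 1.70 with nApoE4 and 1.14 with nApoE3 on the log2 scale (adjusted p = 6.98e-08 and 5.65e-12). Plau, the urokinase gene, fell by 1.38 with nApoE4 (adjusted p = 1.74e-06) and rose by 0.61 with nApoE3 (adjusted p = 3.17e-07), with controls at 216 ± 33 and 43.6 ± 3.4 CPM. Mmp9, a matrix protease, rose 1.73-fold and 4.48-fold (adjusted p = 0.00322 and 2.09e-06) at no more than 4.54 CPM in any sample. Between the fragments, 6 of the 26 targets tested had the larger change with nApoE4, 7 the smaller, and 13 were not called, with a median difference of 0.075. Of all genes tested, 14.4% had the larger and 13.9% the smaller change with nApoE4.

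**Figure D5:**
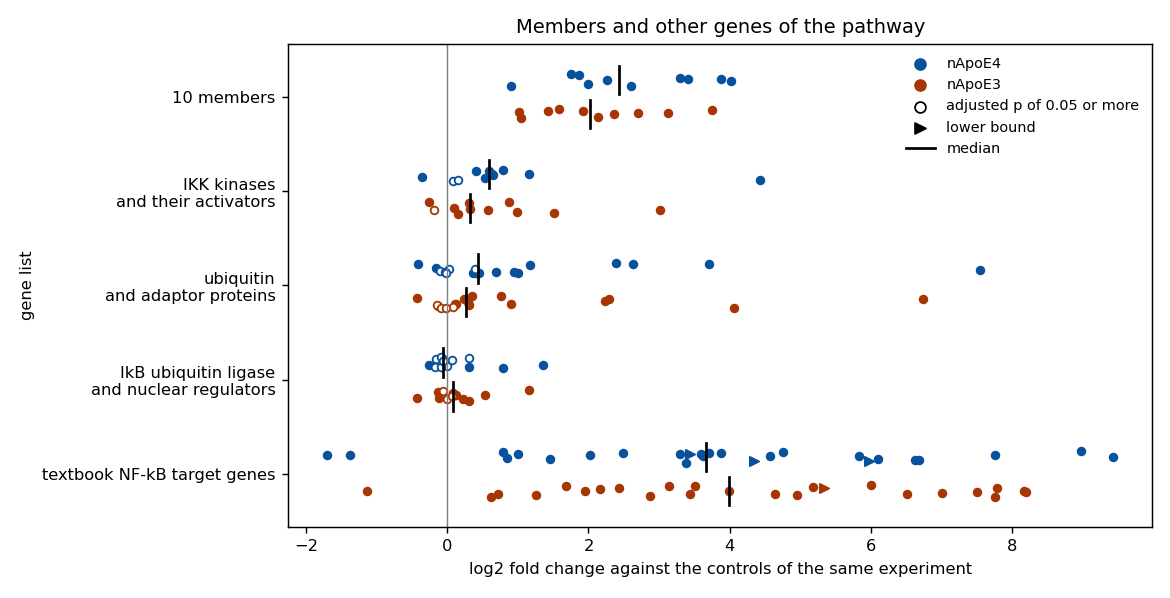
Log2 fold change of each tested gene of the members and of 4 pathway lists, with nApoE4 and nApoE3 against the controls of the same experiment. Points are genes, open points have an adjusted p of 0.05 or more, triangles are lower bounds and black bars are medians. All points of the members lie above 0, and the medians of the kinase, ubiquitin and ligase lists lie between -0.057 and 0.59.

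For each member, the genes most like it were those with the smallest root mean square difference over the 11 samples of log2(CPM + 0.5) relative to the own controls, among 13749 genes tested in both experiments. Nfkb1 was nearest to Gsap (0.053) and Il15ra (0.062), Nfkb2 to Mpp2 (0.061) and Birc3 (0.062), and Rela to Tmco3 (0.052) and Pip5k1a (0.056). Rel was nearest to Dst (0.089) and Ust (0.11), and Relb to Gadd45a (0.13), whose log2 fold changes were 3.58 and 1.85, and Mfsd7a (0.18). Relb thus had no neighbour as close as those of the other subunits.

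Nfkbia was nearest to Lipg (0.099), a low gene at 10.0 CPM with nApoE4 whose fitted log2 fold changes were 4.55 and 2.77, and to Icam1 (0.13), and Nfkbie to Cd38 (0.13) and also Icam1 (0.13). Icam1, an adhesion molecule on the list of textbook targets, had log2 fold changes of 3.60 with nApoE4 and 2.88 with nApoE3. Nfkbib was nearest to Cd74 (0.068) and Gm42362 (0.073), Nfkbiz to Nod2 (0.12) and Marco (0.14), and Bcl3 to Nadk (0.082) and Dusp2 (0.082). The measure describes likeness over these samples, which share libraries and fall into 4 groups.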

How the data were processed

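The 11 deposited files hold raw counts of reads per gene, which the authors made from single-end reads of 75 bases with Trim Galore 0.5.0, FastQC 0.11.8, HISAT2 2.1.0 on GRCm38.p6 and HTSeq 0.11.0. The annotation release, strand setting and overlap mode are not given in the sources used here. Of the tallied reads, 76.0 to 77.7% were on genes and 11.7 to 13.2% mapped to several places, and reads on no gene were left out of library sizes. Groups came from the sample labels.

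Counts were fitted over all genes in R 4.3.3 with edgeR 4.0.16 (filterByExpr, TMM, quasi-likelihood F test, Benjamini-Hochberg adjustment, threshold 0.05), each fragment against its own controls, and as a difference over 11 samples. Standard errors are the log2 fold change divided by the root of F. The pipeline was tested on simulated counts. Alternatives were DESeq2 1.42.0, its size factors, minimums of 1 count in a gene's total or of 10 in each sample, 1 fit of all samples, a replicate block and leaving out each sample. Promoters came from RefSeq and positions from GENCODE vM21. The members and lists were chosen with earlier results of these data known. All 10 members are named. In each other list the 2 genes with the highest and the 2 with the lowest change with nApoE4 are named, 4 and 4 for the targets, by the fitted change, which for Cxcl1 rests on controls at 0, and the 2 nearest genes per member, and further genes were named after their values were seen.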

Additional observations from a re-analysis of the deposited data

Results flagged for a closer look

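The response differed between the fragments in the test of the difference itself for 8 members, each with the larger log2 fold change with nApoE4. The difference was 1.37 for Relb, 0.84 for Rel, 0.74 for Nfkbie, 0.71 for Nfkbia, 0.40 for Nfkbib, 0.32 for Bcl3, 0.26 for Nfkbiz and 0.24 for Nfkb2. The last 3 were close to the threshold and lost the call in 12, 9 and 10 of 16 alternatives, and Nfkbib lost it in 1. Treated levels were higher with nApoE3 for Bcl3 and Nfkb2, overlapped for Nfkbie and were higher with nApoE4 for the rest. The fragments were tested in experiments of their own, with 3 and 2 treated samples, and which of fragment and experiment the differences follow cannot be told apart. No cause was tested.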

How the results depend on the processing

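The call of all 10 members with each fragment was the same in every alternative run, 12 for nApoE4 and 11 for nApoE3, and leaving out a sample gave 10 members throughout, with 7142 to 8827 and 9121 to 9837 genes called in all. The difference between the fragments was less stable. With the replicate block it called 4 members and 2307 genes, against 8 and 4331, and without single samples 5 to 8 members and 3040 to 5250 genes. The cause was not tested. Between the controls, leaving out a sample gave 6 to 9 members and 8949 to 10988 genes, and Rel, at 0.037 over all samples, ranged from -0.13 without replicate 2 of the nApoE4 controls to 0.16 without replicate 3. The replicate numbers are not known to be pairs. Deviations of same-numbered samples correlated at -0.34 to -0.002, but deviations from means of 2 or 3 samples are tied to each other and cannot settle this. Which fit suits the difference better cannot be told, so calls lost under the block stay uncertain. Shares within a class depend on the length used per gene. The other scalings moved the median of all genes by less than 0.01. Every member had 174 counts or more in each sample, so none was near the floor of 3 counts.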
